A study of Mus musculus with 8 samples.

Results

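The genes described here are those of cholesterol and fatty acid synthesis, with the SREBP and LXR regulators of these pathways and the proteins that carry or export sterols. They were chosen by name from a list of 39 symbols and kept where the deposited table held a row whose mean was at least 10 over its 8 libraries. This left 37 genes, out of 11233 in the table and 11032 with that mean. Hmgcs1 and Sc4mol, an older symbol of Msmo1, were not analysed here.

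Each library was bulk RNA-seq of CD4+ Foxp3EGFP- conventional T (Tconv) cells sorted from B16-F10 tumors, which grow from a transplanted mouse melanoma line. Foxp3EGFP-DTR mice, 8 to 14 weeks old, carried EGFP and the diphtheria toxin receptor under the Foxp3 gene's own control, and every mouse received diphtheria toxin (DTx), which kills Foxp3+ Treg cells. The toxin was given in 4 injections of 1 µg between day 7 and day 13 after implantation, and the tumors were taken at day 16. The 4 CCR8- and the 4 CCR8+ libraries, called CCR8neg_DTX and CCR8pos_DTX by the labels, therefore differed in the labels by the sort for the chemokine receptor CCR8, and no untreated group entered the comparison. It addresses whether the lipid synthesis genes differ between the CCR8+ and CCR8- Tconv cells of Treg-depleted tumors.

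Cells make cholesterol from acetyl-CoA through mevalonate, the isoprenoid diphosphates and squalene, and make fatty acids from the same acetyl-CoA through malonyl-CoA. When sterols in the endoplasmic reticulum run low, the escort protein Scap carries the SREBP factors to the Golgi, where they are cut and released to turn on the genes of both routes, whereas Insig proteins hold them back when sterols are plentiful. Oxysterols act in the opposite sense through LXR, which turns on the exporters Abca1 and Abcg1. Activated T cells are known to raise SREBP-driven lipid synthesis to build membranes as they divide.

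Between 12067780 and 17802628 reads per library were counted to genes, and 1 read was worth 0.735 to 1.14 normalized counts, the unit of all values below. The CCR8- replicate 1 library stood apart, with 8569 genes detected against 9544 to 10882 in the other 7, and 26.6% of the tested genes were at or under 3 reads there. All 7 CD4 T cell markers were detected in every library, and their summed level was 71310 to 106316 in CCR8- and 74462 to 111843 in CCR8+ libraries. Ccr8 itself, the gene of the sort, stood at 1293 to 6214 in CCR8- and 6970 to 42508 in CCR8+ libraries. Markers of other cells were also present. The sum of 11 macrophage or monocyte markers ranged from 80.8 to 60605 in CCR8- and from 3050 to 27641 in CCR8+ libraries, and that of 7 melanoma markers from 105 to 17389 and from 232 to 21841. The sum of 6 CD8 T or NK cell markers ranged from 1920 to 5037 in CCR8- and from 775 to 1931 in CCR8+ libraries, with log2 fold changes below 0 for all 5 tested and 0 called by limma. The part of these cells in the values below was not tested. In such bulk libraries, fewer cells of a type and less RNA per cell cannot be told apart.

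Motif letters, which the choice by name did not use, were counted in the promoters of the members. RefSeq windows of the 250 bases before a gene's start (build GRCm38.p6) were found for 28 of the 37 members, with none for Abcg1, Acat1, Fads1, Fdft1, Fdps, Scd1, Scd2, Sqle and Stard4. On either strand, CCAAT, the letters of the NF-Y box, was in a window of 20 of the 28 members (71.4%) against 37.5% of all 27025 genes with a window. GGGCGG, the Sp1 box, was in 21 members (75.0% against 35.4%), and CACGTG, an E-box, in 7 (25.0% against 6.86%). The sterol regulatory element written as TCACNCCAC was in none of the 28, and in 1.22% of all genes. Its shorter core TCACNCCA, which was searched after those counts were seen and lies within the longer motif, was in 2 members (7.14% against 4.2%), Msmo1 and Srebf2. The DR4 repeat that LXR reads, searched in its exact form, was in none of the members and in 0.0148% of genes. These are matches of letters in short windows, not bound sites. The shares of all genes include genes outside the tested ones. The share among tested genes was not computed, so the higher shares of the members cannot be read as a trait of these pathways.

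The following 5 windows belong to the pair of genes with the lowest p-values, Acat2 and Elovl6, and to a regulator (Srebf2), a gene of sterol feedback (Insig1) and an exporter (Abca1). They are printed 5′ to 3′ on the gene's strand, each ends before the gene's first annotated exon, and capitals mark the motifs above on either strand. Acat2 lies at chr17:12960748-12960975 on the minus strand, Elovl6 at chr3:129532136-129532354 on the plus strand, Srebf2 at chr15:82147019-82147180 on the plus strand, Insig1 at chr5:28071162-28071362 on the plus strand and Abca1 at chr4:53159896-53160145 on the minus strand.
Acat2: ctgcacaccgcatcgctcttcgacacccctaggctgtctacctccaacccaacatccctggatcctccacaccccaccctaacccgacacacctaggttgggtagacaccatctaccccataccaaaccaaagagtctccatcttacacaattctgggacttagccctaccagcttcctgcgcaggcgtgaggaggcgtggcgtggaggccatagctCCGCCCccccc
Elovl6: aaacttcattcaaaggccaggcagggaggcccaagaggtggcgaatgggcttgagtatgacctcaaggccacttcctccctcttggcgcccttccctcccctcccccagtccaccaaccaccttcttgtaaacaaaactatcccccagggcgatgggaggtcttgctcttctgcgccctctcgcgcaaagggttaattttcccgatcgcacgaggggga
Srebf2: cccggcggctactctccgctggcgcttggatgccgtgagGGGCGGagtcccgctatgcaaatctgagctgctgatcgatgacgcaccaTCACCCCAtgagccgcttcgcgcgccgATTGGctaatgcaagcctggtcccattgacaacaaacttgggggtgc
Insig1: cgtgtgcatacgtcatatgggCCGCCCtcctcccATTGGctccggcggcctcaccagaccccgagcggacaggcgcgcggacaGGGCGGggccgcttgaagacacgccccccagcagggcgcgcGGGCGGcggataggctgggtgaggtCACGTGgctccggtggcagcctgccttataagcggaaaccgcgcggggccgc
Abca1: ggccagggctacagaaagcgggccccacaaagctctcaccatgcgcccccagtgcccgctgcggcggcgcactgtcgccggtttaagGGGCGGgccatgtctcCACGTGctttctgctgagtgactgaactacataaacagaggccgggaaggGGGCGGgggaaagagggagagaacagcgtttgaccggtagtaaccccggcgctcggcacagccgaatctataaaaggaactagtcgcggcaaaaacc
The Acat2 window held a single Sp1 box read on the opposite strand, and the Elovl6 window held none of the motifs. The Srebf2 window, by contrast, held an Sp1 box, the core of the sterol element and an NF-Y box on the opposite strand, and that of Insig1 an NF-Y box, an E-box and 3 Sp1 boxes. The Abca1 window held an E-box and 2 Sp1 boxes and no exact match to the LXR repeat. Looser forms of that repeat were not searched, so an LXR site may lie in this window.

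None of the 37 members passed limma's test at an adjusted p under 0.05, and none of all 11032 genes did (0% called). This includes Ccr8, the gene of the sort, whose groups did not overlap (log2 fold change 2.37, SE 0.62). A gene that was not called can therefore still differ between the populations. The members' adjusted p-values in limma ran from 0.838 to 0.997, and the smallest of all genes was 0.788. At an unadjusted limma p under 0.05 stood 2 members (5.41%), Acat2 and Elovl6, against 562 of all genes (5.09%). DESeq2 on the reads recovered from the table called 27 of 10744 genes (0.251%) and edgeR called 0 of 11032 (0%), with no member among them, and the same 2 members stood under an unadjusted 0.05 in each, with 602 genes in DESeq2 (5.60%) and 487 in edgeR (4.41%). The direction was mixed: 22 members had a log2 fold change above 0 (59.5%, against 52.4% of all genes), and their median was 0.14, against 0.04 over all genes. Among the 30 members above 3 reads in every library, the median was 0.03. Changes past 1 on the log2 scale were as common among members, 12 of 37 (32.4%), as among all genes (30.0%). Of the 30 members above 3 reads in every library, 25 had changes below 1 in size, so many of the 12 had a library at or under 3 reads.

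**Figure D1:**
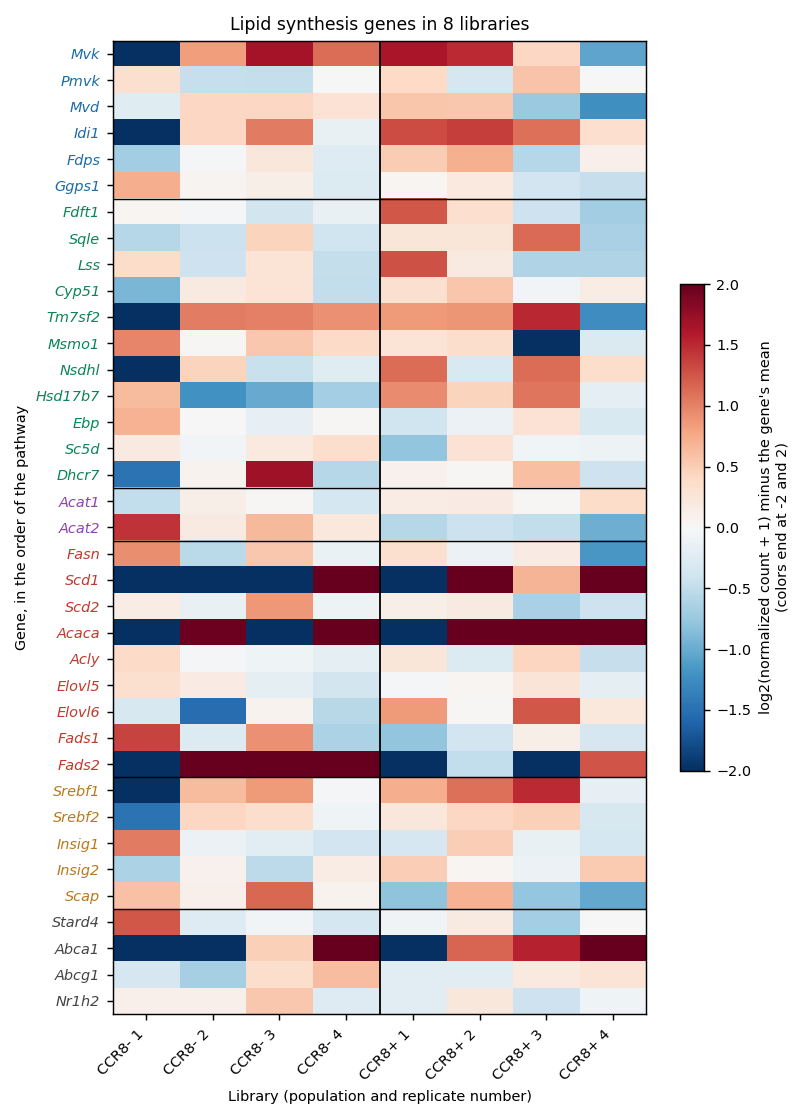
Each row is 1 of the 37 genes, colored by its step of the pathway, and each column 1 library, with CCR8- on the left of the line and CCR8+ on the right. Color shows log2(normalized count + 1) minus the gene's mean over the 8 libraries, and colors end at -2 and 2. No block of rows separates the CCR8+ from the CCR8- columns. The CCR8- replicate 1 column is the lowest for 11 genes and the highest for 9, ties left out.

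Levels were compared between genes per kilobase of annotated exon. On that scale Elovl5 (1076 normalized counts per kilobase over all 8 libraries), Ebp (903) and Acat1 (509) were the most abundant, and Acaca (2.23), Scd1 (4.17) and Abca1 (4.95) the least. The order of the first 3 was not clear of the spread, since single libraries ran from 820 to 1329 for Elovl5 and from 664 to 1422 for Ebp, and Acat1 stayed under both, at 355 to 648. Among the low genes, libraries without a read were frequent: Scd1 had 4 of 8 at 0, and Acaca, Fads2 and Abca1 had 3 each. In all, 7 members were at or under 3 reads in at least 1 library (18.9%, against 34.2% of all genes).

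Acat2 makes acetoacetyl-CoA from acetyl-CoA in the cytosol, the entry to the mevalonate pathway. It had the lowest p-value of the members and was the only member whose groups did not overlap (2.70% of members, against 4.40% of all genes). The CCR8- libraries held 1164, 480, 665 and 495 normalized counts (replicates 1 to 4) and the CCR8+ libraries 285, 315, 301 and 215. Every CCR8+ library was below every CCR8- library, and CCR8- replicate 1 was the highest by a wide margin. Lower CCR8+ values in all 4 same-numbered pairs, as here, were found for 8.10% of all genes and for no other member. Means were 701 ± 320 and 279 ± 44.4 (SD, n = 4 each), the log2 fold change was -1.24 (SE 0.40), or 2.37-fold lower, and the adjusted p in limma was 0.838. The exact two-sided permutation test gave p = 0.0286, the smallest that 70 assignments of the labels allow, and lower values without overlap were found for 2.03% of all genes. The study compared CCR8+ with CCR8- cells in these same samples, with DESeq2 as its test, and reported differentially expressed genes. Acat2 is also in a gene list that the study drew from that comparison, so its direction here is no independent evidence. With each library left out in turn the log2 fold change of Acat2 stayed between -1.39 and -0.97. The value nearest 0, -0.97, came without CCR8- replicate 1.

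The gene lies on chromosome 17 (12942890 to 12960747, minus strand, GRCm38, GENCODE M21). It shares no exon bases with another annotated gene. It has a close copy, Acat3, 97.7% identical over 1477 bases of transcript, and 445 of its bases match Tcp1, a chaperonin subunit at a separate position, at 98.7% on the opposite strand. Tcp1 stood at 2360 to 2704 in CCR8- and 2995 to 4304 in CCR8+ libraries (log2 fold change 0.45, SE 0.19, adjusted p = 0.838 in limma). Acat3 was not analysed here.

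Acat1, the mitochondrial enzyme of the same reaction, which also serves ketone and isoleucine breakdown, stood at 1333, 2032, 1911 and 1481 in CCR8- and at 2090, 2109, 1915 and 2436 in CCR8+ libraries. It was higher in CCR8+ within all 4 same-numbered pairs, with nearly equal values in the replicate 3 pair, and the groups overlapped. The log2 fold change was 0.36 (SE 0.22, adjusted p = 0.838 in limma). Higher CCR8+ values in all 4 pairs were found for 4 members (10.8%) and for 8.44% of all genes.

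The 6 mevalonate and isoprenoid genes had a median log2 fold change of 0.34, with 4 above 0 and 2 below, and the median was 0.05 without CCR8- replicate 1. The most abundant were Fdps, which makes farnesyl diphosphate, Ggps1, which makes geranylgeranyl diphosphate, and Pmvk, phosphomevalonate kinase. Fdps stood at 615, 967, 1161 and 831 in CCR8- and 1415, 1632, 668 and 1065 in CCR8+ libraries. Ggps1 stood at 1184, 748, 775 and 593 and at 737, 820, 551 and 521. Pmvk stood at 468, 272, 268 and 377 and at 496, 296, 558 and 373. The groups overlapped for each, with log2 fold changes of 0.38 (SE 0.33), -0.31 (SE 0.31) and 0.31 (SE 0.40) and adjusted p-values in limma of 0.839, 0.852 and 0.882. Fdps shares 26.7% of its exon bases with Gm43738 on the same strand and has near copies in the genome, and the study kept uniquely mapped reads.

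Idi1, the isomerase of isopentenyl diphosphate, had the largest estimate of this step. It stood at 1.97, 170, 263 and 114 in CCR8- and 316, 332, 275 and 160 in CCR8+ libraries, higher in CCR8+ in all 4 pairs, yet with overlap. The CCR8- replicate 1 library, at 2 reads, was far below the rest. The log2 fold change was 2.06 (SE 1.30, adjusted p = 0.838 in limma), and without that library it was 0.60. Mvk, mevalonate kinase, was likewise at 0 in CCR8- replicate 1 and at 32.2 to 218 in the other 7 libraries, and its log2 fold change of 1.24 (SE 1.69) became -0.59 without it. Mvd, the decarboxylase of the pathway, ranged from 208 to 331 in CCR8- and from 105 to 365 in CCR8+ libraries (log2 fold change -0.43, SE 0.57).

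Of the 11 genes from squalene to cholesterol, 8 had log2 fold changes above 0 and 3 below, with a median of 0.24 that ran from 0.14 to 0.65 as single libraries were left out (0.65 without CCR8- replicate 3). Ebp, the sterol isomerase, stood at 3284, 2013, 1801 and 2064 in CCR8- and 1534, 1875, 2477 and 1634 in CCR8+ libraries. Sc5d, the sterol desaturase, stood at 1359, 1157, 1367 and 1524 and at 691, 1456, 1154 and 1112. Cyp51, lanosterol demethylase, stood at 368, 793, 839 and 494 and at 871, 1018, 672 and 768. These 3 abundant genes overlapped between the groups, with log2 fold changes of -0.27 (SE 0.25), -0.34 (SE 0.27) and 0.48 (SE 0.34) and adjusted p-values in limma of 0.847, 0.838 and 0.838.

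The 3 enzymes that together remove the methyl groups next to the sterol's hydroxyl group did not share a direction. Nsdhl stood at 87.7, 492, 266 and 306 in CCR8- and 788, 293, 783 and 464 in CCR8+ libraries, and Hsd17b7 at 327, 89.7, 104 and 131 and at 407, 285, 442 and 184. Both had higher CCR8+ means, Hsd17b7 in all 4 pairs and Nsdhl in 3, with log2 fold changes of 1.14 (SE 0.58) and 1.13 (SE 0.62). Msmo1, which oxidizes the methyl groups first, stood at 1061, 547, 786 and 704 in CCR8- and 650, 691, 114 and 440 in CCR8+ libraries (log2 fold change -0.96, SE 0.54). The groups overlapped for each of the 3, and the adjusted p in limma was 0.838 for each. For Msmo1, the CCR8+ replicate 3 library was the lowest, and the log2 fold change was -0.37 without it.

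The other 5 sterol genes had groups that overlapped. Fdft1, squalene synthase, ranged from 482 to 640 in CCR8- and from 382 to 1475 in CCR8+ libraries, and shares 18.3% of its exon bases with Ctsb on the opposite strand. Sqle, squalene epoxidase, ranged from 273 to 556 and from 260 to 898, and Lss, lanosterol synthase, from 198 to 357 and from 182 to 668. Their log2 fold changes were 0.24 (SE 0.42), 0.49 (SE 0.46) and 0.12 (SE 0.55). The CCR8+ replicate 1 library held the highest values of Fdft1 and Lss, and without it both were below 0 (-0.14 and -0.28). Tm7sf2, a sterol reductase, was at 0 in CCR8- replicate 1 and at 12.2 to 87.8 elsewhere, and its log2 fold change of 1.0 became -0.48 without that library. Dhcr7, the last reductase, ranged from 54.2 to 495 in CCR8- and from 114 to 232 in CCR8+ libraries, and its log2 fold change was 0.14 in limma and -0.30 in edgeR.

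**Figure D2:**
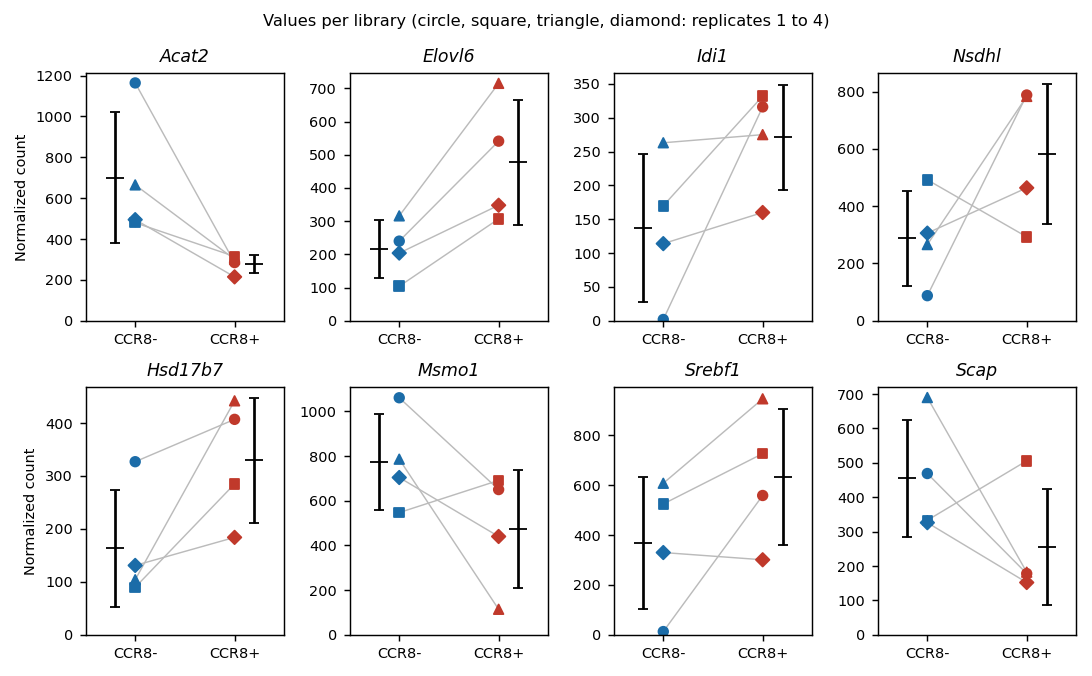
Normalized counts (vertical axes, starting at 0) of 8 genes in the 4 CCR8- (blue) and 4 CCR8+ (red) libraries, with the mean and SD in black. Gray lines join libraries of the same replicate number, which are not known to share an animal. The 4 CCR8+ values of Acat2, 215 to 315, lie below all CCR8- values, 480 to 1164, whereas the groups of the other 7 genes overlap.

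The 9 fatty acid genes had a median log2 fold change of -0.03, with 4 above 0 and 5 below. Elovl6, which extends palmitate to stearate, stood out at an unadjusted p of 0.0432 in limma. It held 240, 104, 316 and 204 normalized counts in CCR8- and 541, 307, 715 and 348 in CCR8+ libraries. The CCR8+ library was higher in all 4 same-numbered pairs, as for 8.44% of all genes, and only CCR8- replicate 3, at 316, reached into the CCR8+ range. Means were 216 ± 87.8 and 478 ± 188 (SD, n = 4 each), and the log2 fold change was 1.16 (SE 0.51), with an adjusted p of 0.838 in limma and an exact permutation p of 0.0571. It stayed between 0.85 and 1.38 as single libraries were left out. Elovl6 lies on chromosome 3 (129532355 to 129638495, plus strand, GRCm38), and Gm11295 matches its transcript at 97.4% over 805 bases.

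Elovl5, which extends polyunsaturated fatty acids, was the most abundant member and one of the most even. It stood at 4680, 4184, 3267 and 2889 in CCR8- and 3664, 3863, 4467 and 3316 in CCR8+ libraries. Acly, which splits citrate into acetyl-CoA for both routes, stood at 1616, 1215, 1175 and 1085 and at 1471, 1025, 1676 and 898. Scd2, a stearoyl-CoA desaturase, stood at 408, 334, 675 and 344 and at 398, 420, 234 and 276. The log2 fold changes of these 3 were 0.05 (95% interval -0.43 to 0.52), -0.03 (-0.63 to 0.56) and -0.39 (-1.30 to 0.53), and the groups overlapped for each.

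Fasn, fatty acid synthase, ranged from 148 to 409 in CCR8- and from 94.9 to 268 in CCR8+ libraries (log2 fold change -0.40, SE 0.60). Fads1, a front-end desaturase, ranged from 102 to 406 and from 90.8 to 172 (-0.69, SE 0.70). Its partner Fads2 was at 0 in CCR8- replicate 1 and at 29.4 to 92.0 in the other 3 CCR8- libraries, against 0 to 16.5 in CCR8+, with 3 lower pairs and 1 pair at 0 in both. Scd1, a close relative of Scd2, was at 0 in 3 CCR8- libraries and in CCR8+ replicate 1, and at 7.98 to 70.5 in the other 3 CCR8+ libraries. Acaca, acetyl-CoA carboxylase, was at 0 in CCR8- replicates 1 and 3 and in CCR8+ replicate 1, and at 50.0 to 73.1 in the other 5 libraries. The log2 fold changes in limma were -2.49 for Fads2 (95% interval -6.59 to 1.62), 2.68 for Scd1 (-1.53 to 6.9) and 1.69 for Acaca (-2.97 to 6.34). All 3 intervals were wide and included 0. Acaca is matched by Gm5182 at 99.2% over 6118 bases.

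The regulators gave no common direction either: 3 of 5 had log2 fold changes above 0 and the median was 0.40, or 0.15 without CCR8- replicate 1. Srebf2, which encodes the SREBP of sterol genes, stood at 406, 1513, 1451 and 1068 in CCR8- and 1323, 1509, 1581 and 907 in CCR8+ libraries (log2 fold change 0.40, SE 0.41). Srebf1, which encodes the SREBP of fatty acid genes, stood at 12.8, 525, 608 and 330 and at 559, 727, 947 and 301 (1.58, SE 1.05). For both, CCR8- replicate 1 was the lowest of the 8 libraries. Without it, the log2 fold changes were -0.03 for Srebf2 and 0.30 for Srebf1.

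Insig1, itself a target of SREBP, stood at 954, 428, 399 and 357 in CCR8- and 369, 653, 420 and 362 in CCR8+ libraries. The log2 fold change was -0.17 (SE 0.41), and 0.15 without CCR8- replicate 1, its highest library. Insig2 stood at 304, 504, 329 and 522 and at 666, 484, 436 and 681 (0.46, SE 0.36). Scap stood at 469, 333, 690 and 326 and at 178, 506, 182 and 152, with CCR8+ replicates 1, 3 and 4 below every CCR8- library and CCR8+ replicate 2 within the CCR8- range (log2 fold change -0.95, SE 0.52, adjusted p = 0.838 in limma). For Scap, 13.2% of exon bases are shared with an antisense transcript.

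**Figure D3:**
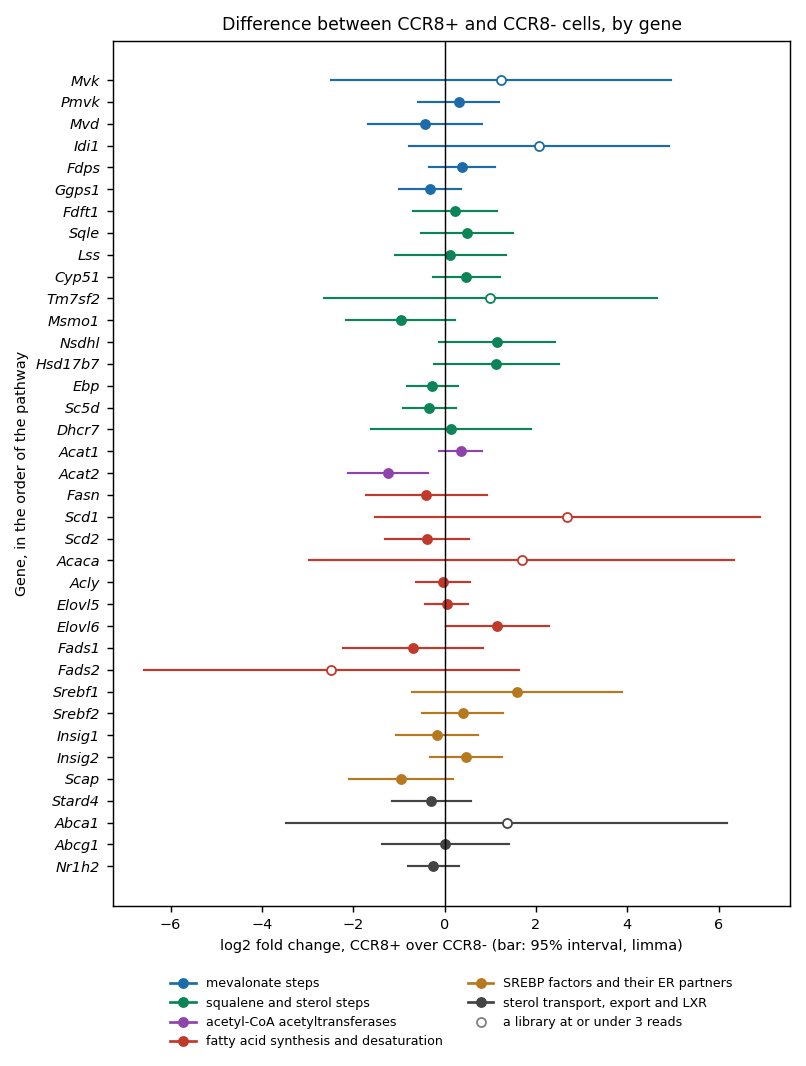
Points are the log2 fold changes of the 37 genes, CCR8+ over CCR8-, and bars the 95% intervals of limma (horizontal axis), with genes ordered and colored by step. Open points mark the 7 genes with a library at or under 3 reads, whose bars are the widest. Of the 37 bars, those of Acat2 (-2.12 to -0.37) and Elovl6 (0.04 to 2.29) leave out 0, before any adjustment.

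Sterol transport and export genes had groups that overlapped in each case, and a median log2 fold change of -0.11. Nr1h2, the LXR receptor found in most tissues, stood at 1316, 1319, 1790 and 1027 in CCR8- and 1046, 1439, 918 and 1151 in CCR8+ libraries (-0.25, SE 0.25). Stard4, which moves sterol between membranes, stood at 1754, 620, 708 and 578 and at 705, 835, 460 and 736 (-0.29, SE 0.39). Its CCR8- replicate 1 value was the highest, and the log2 fold change was 0.08 without it.

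Abcg1 was present throughout, at 127, 101, 207 and 248 in CCR8- and 139, 140, 184 and 195 in CCR8+ libraries. Its log2 fold change was 0.02, with a 95% interval from -1.37 to 1.42. Abca1 stood at 0, 0, 15.8 and 190 in CCR8- and 0, 26.0, 34.2 and 145 in CCR8+ libraries. Both exporters were highest in the replicate 4 libraries of the 2 populations, and the log2 fold change of Abca1, 1.36 (95% interval -3.47 to 6.19), was -0.01 in DESeq2.

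The SREBP targets were then set against the exporters, library by library, as the median over 29 targets, or over Abca1 and Abcg1, of the log2 value minus the gene's mean. The targets stood at 0.05, -0.02, 0.27 and -0.14 in CCR8- and 0.24, 0.25, 0.25 and -0.31 in CCR8+ libraries. The exporters stood at -1.97, -2.13, 0.42 and 2.30 and at -1.90, 0.48, 0.87 and 1.93. The spreads of these medians are not comparable, since one is over 29 genes and the other over 2, of which Abca1 was at 0 in 3 libraries. In both populations, the replicate 4 library had the lowest targets and the highest exporters. Targets minus exporters averaged 0.38 ± 2.15 in CCR8- and -0.24 ± 1.81 in CCR8+ libraries (SD, n = 4 each). The difference of -0.62 was smaller than either SD, and it was above 0 in 2 same-numbered pairs (0.13 and 0.20) and below in 2 (-2.35 and -0.46). Taken from the genes' log2 fold changes, the same contrast was -0.55 in limma and turned to 0.12 in edgeR and 0.14 in DESeq2, and with single libraries left out it ran from -1.59 (without CCR8- replicate 4) to 0.18 (without CCR8+ replicate 4).

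CCR8+ replicate 4 was the lowest of all 8 libraries for 9 members (24.3%), against 5.78% of all genes, ties left out. These were Mvd, Ggps1, Fdft1, Sqle, Lss, Acat2, Fasn, Acly and Scap. CCR8- replicate 1 was the lowest for 11 (29.7%, against 27.6%) and the highest for 9 (24.3%, against 22.8%). Lowest and highest counts were made for all 8 libraries, and only these are given, so the share of CCR8+ replicate 4 is a picked one. The 2 libraries with the highest exporters, CCR8- replicate 4 and CCR8+ replicate 4, also had the highest melanoma marker sums, 17389 and 21841, against 105 to 5574 in the other 6. Their macrophage or monocyte sums were 60605 and 19029. Of the libraries without an Abca1 read, CCR8- replicate 1 had the lowest macrophage sum, 80.8, whereas CCR8+ replicate 1 had 27641 and CCR8- replicate 2 had 4023. Of the 11 macrophage markers 10 had log2 fold changes above 0 and 0 were called by limma, and 4 were at 0 in CCR8- replicate 1. The part of these cells in the members' values was not tested.

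**Figure D4:**
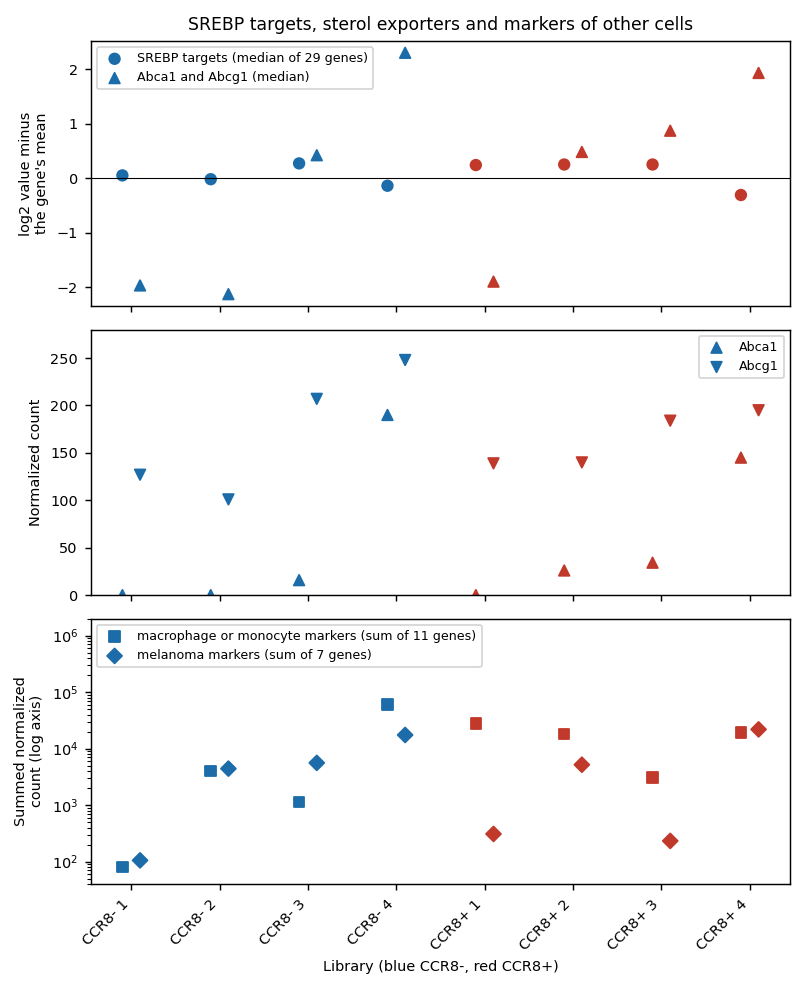
For each library (horizontal axis, CCR8- in blue and CCR8+ in red), the top panel gives the median log2 value, relative to each gene's mean, of 29 SREBP targets and of Abca1 and Abcg1. The middle panel gives both exporters in normalized counts, and the bottom panel the summed macrophage and melanoma markers on a log axis. Within each population the targets are lowest (-0.14 and -0.31) and the exporters highest (2.30 and 1.93) in the replicate 4 library, and the spreads of the 2 medians are not comparable.

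Other genes of the same routes, taken from lists by role, had 0 members called by limma. Of 11 further genes of sterol synthesis and uptake, 7 had log2 fold changes above 0 (median 0.19), and of 14 further genes of fatty acid and lipid synthesis, 9 (median 0.11). Of 10 genes of SREBP processing and degradation 4 were above 0 (median -0.15), of 13 further LXR targets and sterol storage genes 5 (median -0.38), and of 9 prenylation genes 5 (median 0.01). At an unadjusted limma p under 0.05 stood 3 of these 57 genes, named next, against 5.09% of all genes, and none passed the adjustment.

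Mylip, an LXR target that degrades the LDL receptor, stood at 137, 165, 144 and 299 in CCR8- and 22.7, 65.5, 63.9 and 23.5 in CCR8+ libraries. Every CCR8+ library was below every CCR8- library, as for 2.03% of all genes. The log2 fold change of Mylip was -2.16 (SE 0.91, adjusted p = 0.838 in limma, exact permutation p = 0.0286). Lpcat3, which places polyunsaturated chains in phospholipids, stood at 309, 899, 1441 and 560 and at 1753, 1371, 4796 and 986 (1.41, SE 0.54, adjusted p = 0.838 in limma). Acsl5, which activates long fatty acids, stood at 1518, 2040, 2431 and 1640 and at 2840, 2673, 3073 and 2138 (0.50, SE 0.22, adjusted p = 0.838 in limma). Lpcat3 and Acsl5 were higher in CCR8+ in all 4 same-numbered pairs, as for 8.44% of all genes, and their groups overlapped.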

How the data were processed

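RNA was extracted from FACS-sorted Tconv cells, and libraries were made with a Clontech SMARTer low-input kit. The authors trimmed reads with Cutadapt, checked them with FastQC, aligned them with hisat2 to the mouse build NCBIM37, kept reads with a unique position and scaled libraries with the help of intergenic reads, and the submitters' processing notes also name HTSeq, DESeq2 and mm9. Tool versions, and whether strand was used, are not given in the sources used here. The deposited table holds a normalized signal per gene and library: read counts divided by 1 factor per library. Every value was a whole multiple, within 0.05, of what 1 read was worth, and whole reads were recovered for 100% of values.

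Genes with a mean of at least 10 were tested on log2(normalized count + 1), which understates the change of low genes, with limma 3.58.1 (moderated test with an intensity trend, Benjamini-Hochberg over 11032 genes, R 4.3.3), and single genes by an exact two-sided permutation test over 70 assignments of the labels. Log2 fold changes are on the log2(normalized count + 1) scale unless another tool or setting is named. edgeR 4.0.16 and DESeq2 1.42.0 on the recovered reads were alternatives, with other scalings, pseudocounts (0.1 and 10), filters (none, or a mean of at least 100), a replicate block and each library left out. The scripts were also run on simulated data, whose outcome is not given here, so the power to find a change in these libraries is not stated. Replicates are those of the labels, from the same day, and p-values measure the spread between these libraries only. No interval covers more than this spread, and a count of 0 allows up to 3 reads, or 2.21 to 3.42 normalized counts.

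The members and lists were chosen with earlier results of these data known, so no p-value is given for a list. Every library's value is printed for members whose groups do not overlap, members with an unadjusted limma p under 0.05, the 3 most abundant members of each list, Abca1, Abcg1 and the Srebf and Insig genes. Idi1, Nsdhl, Hsd17b7, Msmo1 and Scap were added after their values were seen. Of other pathway genes, those with an unadjusted p under 0.05 or without overlap are named. Positions, exon lengths and near copies (blastn 2.17.0, at least 95% identity over 200 bases) come from GENCODE M21 on GRCm38, another build than the authors' one, and promoters from RefSeq on GRCm38.p6.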

Additional observations from a re-analysis of the deposited data

Results flagged for a closer look

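In 7 of 74 groups of 4 libraries examined, 1 library lay far from the other 3 by Dixon's test, and chance alone gives about 1 in 20. CCR8- replicate 1, the library with the fewest genes detected, accounted for 3 of the 7: Mvk was at 0 there against 122 to 218 normalized counts in the other CCR8- libraries, Tm7sf2 at 0 against 57.9 to 62.5, and Srebf1 at 12.8 against 330 to 608. CCR8- replicate 3 stood high for Sqle, at 556 against 273 to 308. CCR8- replicate 4 held the only Scd1 signal of its group, 22.7 against 0. Among CCR8+ libraries, Acaca was at 0 in replicate 1 against 56.3 to 73.1, and Scap at 506 in replicate 2 against 152 to 182.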

How the results depend on the processing

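No member was called under any alternative run, with limma, edgeR or DESeq2. Of 809 log2 fold changes of members under the alternatives, 779 kept their direction, and 25 of the 37 members kept it throughout. These counts include limma runs that changed only the filter, the variance estimate or the replicate block. Such runs refit the same log2 values, so no direction could turn in them. The count of all genes called moved from 0 to 2 without limma's intensity trend and to 27 in DESeq2. Dhcr7 turned to -0.30 in edgeR, with or without a filter on low counts, and -0.29 in DESeq2. Abcg1 turned to -0.05 in edgeR (both filters), in DESeq2 and with libraries scaled to equal totals, Elovl5 to -0.02 with that scaling, and Abca1 to -0.01 in DESeq2. With single libraries left out, log2 fold changes that turned ran from -0.59 to 2.0 for Mvk, -0.14 to 0.51 for Fdft1, -0.28 to 0.35 for Lss, -0.48 to 1.58 for Tm7sf2, -0.32 to 0.73 for Dhcr7, -0.18 to 0.12 for Acly, -0.07 to 0.16 for Elovl5, -0.03 to 0.60 for Srebf2, -0.36 to 0.15 for Insig1, -0.46 to 0.08 for Stard4 and -0.20 to 0.23 for Abcg1. Of the 21 such turns, 8 came without CCR8- replicate 1. The median of the squalene and sterol steps ran from 0.14 to 0.65, that of the mevalonate steps from 0.05 to 0.40 and that of the regulators from 0.15 to 0.57. The causes were not tested. Scd1, Acaca, Fads2 and Abca1 each had 3 or 4 libraries at 0.

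The replicate numbers were not taken to pair the libraries, since the sources do not say that they share animals and not every pair passed r = 0.1: deviations of same-numbered libraries correlated at r = 0.0682, 0.138, 0.108 and 0.217 across genes, and those of other pairs at -0.171 to 0.101. Every library but CCR8- replicate 1 correlated best with its own number, a hint of pairing from the data and not from the design. Fits that blocked on the replicate number called 1 gene in limma (0.00906%) and 126 in DESeq2 (1.16%), no member among them, and Acat2 had an adjusted p of 0.758 in limma and 0.187 in DESeq2 with the block.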

Other observations

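A pair of genes of sterol uptake and transport outside the list were looked at after their values were seen. Lrp8, a lipoprotein receptor, was higher in CCR8+ in all 4 same-numbered pairs, as for 8.44% of all genes. It stood at 8.87 to 124 normalized counts in CCR8- and 72.3 to 536 in CCR8+ libraries. The groups overlapped (log2 fold change 2.27, SE 1.16, adjusted p = 0.838 in limma). Apoe, an LXR target abundant in macrophages, ran from 5.91 to 22892 in CCR8- and from 668 to 6478 in CCR8+ libraries, and was highest in the replicate 4 library of each population.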
